A study of Mus musculus with 10 samples.

Results

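The genes described here encode alcohol dehydrogenases (Adh), aldehyde dehydrogenases (Aldh) and aldo-keto reductases (Akr) of the mouse. They were chosen by name alone, as every non-control probe whose array gene name starts with Adh, Aldh or Akr and a digit. This gave 58 of 41174 probes and 40 of 27547 gene names, of which 6 were Adh, 20 Aldh and 14 Akr genes. A gene was tested, through its brightest probe, where the scanner software marked that probe as well above background on each array of 1 or more groups. All 20 Aldh genes, 5 Adh genes and 11 Akr genes met this, 36 in all. Adh6-ps1, Akr1c6, Akr1c20 and Akr1d1 did not and were not tested.

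RNA from the ileum, the last stretch of the small intestine, was measured on 10 one-colour Agilent arrays, 2 for each of 5 groups of C57BL/6 mice aged 6 to 8 weeks. TetON-Sox2 mice were left untreated (Sox2 -DOX) or drank water with 2 mg/ml doxycycline (DOX) and 1% sucrose for 2 days (Sox2 +DOX), which switches on a Sox2 transgene. TetON-Oct4 mice (Oct4 +DOX), mice with both transgenes (TetON-Oct4 X TetON-Sox2, written Sox2xOct4 +DOX) and rtTA controls without the TetOP-Sox2 transgene (rtTA +DOX) received the same treatment. Sox2 and Oct4 are transcription factors of pluripotent cells, and Sox2 is also a factor of the foregut. The sources used here do not give the promoter that drives rtTA, the doxycycline-dependent activator. The tissue was whole ileum, so all cell layers contributed RNA. Nothing in the labels states that paired arrays are different mice, so the p-values measure the spread between these arrays, which may be technical. The Oct4 +DOX pair differs in sex-linked genes and so came from different mice.

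These enzymes pass hydride between NAD(P)H and alcohols, aldehydes or ketones. Alcohol dehydrogenases oxidise ethanol, retinol and other alcohols to aldehydes, and aldehyde dehydrogenases carry aldehydes on to acids. In the retinoid pathway, retinol is oxidised to retinal, and enzymes of the Aldh1a group make retinoic acid from it. Aldo-keto reductases mostly work the other way and reduce sugar, lipid and steroid carbonyls with NADPH. Adh7 and Aldh3a1 are best known from stomach, oesophagus and cornea, while Adh1, Aldh1a1 and Akr1b7 are known from the intestinal epithelium.

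The upstream sequences of 4 genes that carry the results are shown because 2 of them (Adh7 and Akr1c18) were raised and 2 (Akr1b7 and Aldh1l1) lowered with Sox2. Each is the 250 bases before the RefSeq gene start, 5′ to 3′ on the gene's strand, in build GRCm38.p6. They lie at chr3:138217523-138217772 on the + strand for Adh7, chr13:4150647-4150896 on the - strand for Akr1c18, chr6:34412112-34412361 on the + strand for Akr1b7 and chr6:90550543-90550792 on the + strand for Aldh1l1. Capitals mark the only matches, on either strand, to the 4 motifs searched.
Adh7: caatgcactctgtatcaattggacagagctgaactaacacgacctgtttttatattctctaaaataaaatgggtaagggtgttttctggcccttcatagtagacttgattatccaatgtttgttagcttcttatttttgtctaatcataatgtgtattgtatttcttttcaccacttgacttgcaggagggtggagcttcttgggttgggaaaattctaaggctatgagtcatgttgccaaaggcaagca
Akr1c18: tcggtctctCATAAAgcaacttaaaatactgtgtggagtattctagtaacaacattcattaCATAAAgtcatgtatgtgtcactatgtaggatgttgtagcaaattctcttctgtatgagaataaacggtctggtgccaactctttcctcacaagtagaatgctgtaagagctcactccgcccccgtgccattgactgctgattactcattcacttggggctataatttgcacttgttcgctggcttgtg
Akr1b7: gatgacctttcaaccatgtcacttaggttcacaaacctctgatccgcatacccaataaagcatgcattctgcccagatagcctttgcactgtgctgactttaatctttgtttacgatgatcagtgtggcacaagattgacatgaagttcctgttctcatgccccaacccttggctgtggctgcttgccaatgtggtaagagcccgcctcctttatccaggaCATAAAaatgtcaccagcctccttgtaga
Aldh1l1: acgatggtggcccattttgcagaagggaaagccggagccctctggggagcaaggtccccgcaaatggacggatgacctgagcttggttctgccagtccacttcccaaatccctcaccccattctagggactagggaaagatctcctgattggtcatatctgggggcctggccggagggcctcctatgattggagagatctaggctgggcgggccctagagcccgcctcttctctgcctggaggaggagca
The motifs were ACAATG (Sox-type), TTTATG (Cdx-type, after the intestinal Cdx factors), TGACNNNGC (the core of the antioxidant response element) and GCGTG (the core of the xenobiotic response element). The 2 matches of Akr1c18, at bases -241 and -189, and the match of Akr1b7, at base -29, are to the Cdx-type motif, read as CATAAA. The match of Akr1b7 lies where a TATA box usually stands, which an A+T-rich word can resemble. Neither Adh7 nor Aldh1l1 held any of the 4 motifs in this window. ACAATG was in 8 of the 31 genes of these families with an upstream sequence (25.8%) and in 11.0% of 27025 mouse genes, and none of these 4 genes was among the 8. TTTATG was in 19.4% of the 31 and 11.1% of all, GCGTG in 19.4% and 28.2%, and TGACNNNGC in 9.68% and 10.1%. Aldh4a1, whose level also fell with Sox2, held GCGTG at bases -185 and -55. A match describes the letters and not a site that is used.

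The arrays had 63.5% to 70.5% of probes well above background, and replicates correlated at r = 0.959 to 0.984 across genes. Levels are log2 of the processed signal over the 75th percentile of the array's probes, so a level of 0 is that percentile. The percentile ranged from a signal of 544.2 (Oct4 +DOX replicate 2) to 1612.8 (rtTA +DOX replicate 1). The lowest level well above background was -5.83 and -7.03 on these 2 arrays, so levels near background depend on the array. Differences were tested with limma over 19045 genes, with Benjamini-Hochberg adjustment over all of them, and are called at an adjusted p under 0.05. The 4 TetON-Sox2 arrays shared slide 1, the rtTA +DOX and Sox2xOct4 +DOX arrays slide 2 and the Oct4 +DOX arrays slide 3, so slide and group cannot be told apart where slides are crossed. The slides also differ in sex-linked genes. Xist read 2.98 to 3.89 on the slide 2 arrays and 2.62 on 1 Oct4 +DOX array, and Eif2s3y 1.61 to 2.10 on the slide 1 arrays and 1.78 on the other Oct4 +DOX array, while each lay at -6.01 or lower elsewhere. Pou5f1, which encodes Oct4, was well above background on the 4 arrays of Oct4 +DOX and Sox2xOct4 +DOX and on no other. The Sox2 probe reached a level well above background on 0 of the 10 arrays. The sources used here do not say whether it lies in the part of Sox2 that the transgene carries, so it does not check the Sox2 labels.

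With Sox2 on, 4 of the 36 genes rose against untreated TetON-Sox2 ileum and 3 fell. Of all 19045 genes, 7.83% were called, 3.03% higher and 4.8% lower. The genes that rose were Adh7, Aldh3a1, Akr1c18 and Akr1b3. Of these, Adh7, Aldh3a1 and Akr1c18 passed the filter only through Sox2 +DOX and Sox2xOct4 +DOX, where they are highest. Their place among the 36, here and in the comparisons below, rests on those groups. The genes that fell were Akr1b7, Aldh1l1 and Aldh4a1. The median difference of the 36 was 0.30 on the log2 scale, beside -0.10 over all genes. The 2 groups did not overlap for 26 of the 36, which is 72.2% beside 66.4% of all genes. Akr1c21, not well above background on any array of these 2 groups, was among the 26. Doxycycline and sucrose were given together with Sox2 here, so their parts cannot be told apart in this comparison. Between rtTA +DOX and Sox2 -DOX, which also differ in slide, genotype and sex-linked genes, limma called 0 of the 36 and 0 of all genes. These groups did not overlap for 14 of the 36 (38.9%) and 43.2% of all genes. Aldh3a1, not well above background on any array of these groups, was among the 14. At an unadjusted p under 0.05 that comparison held 1 higher gene of the 36, Adh4, and 344 higher and 724 lower genes in all.

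**Figure D1:**
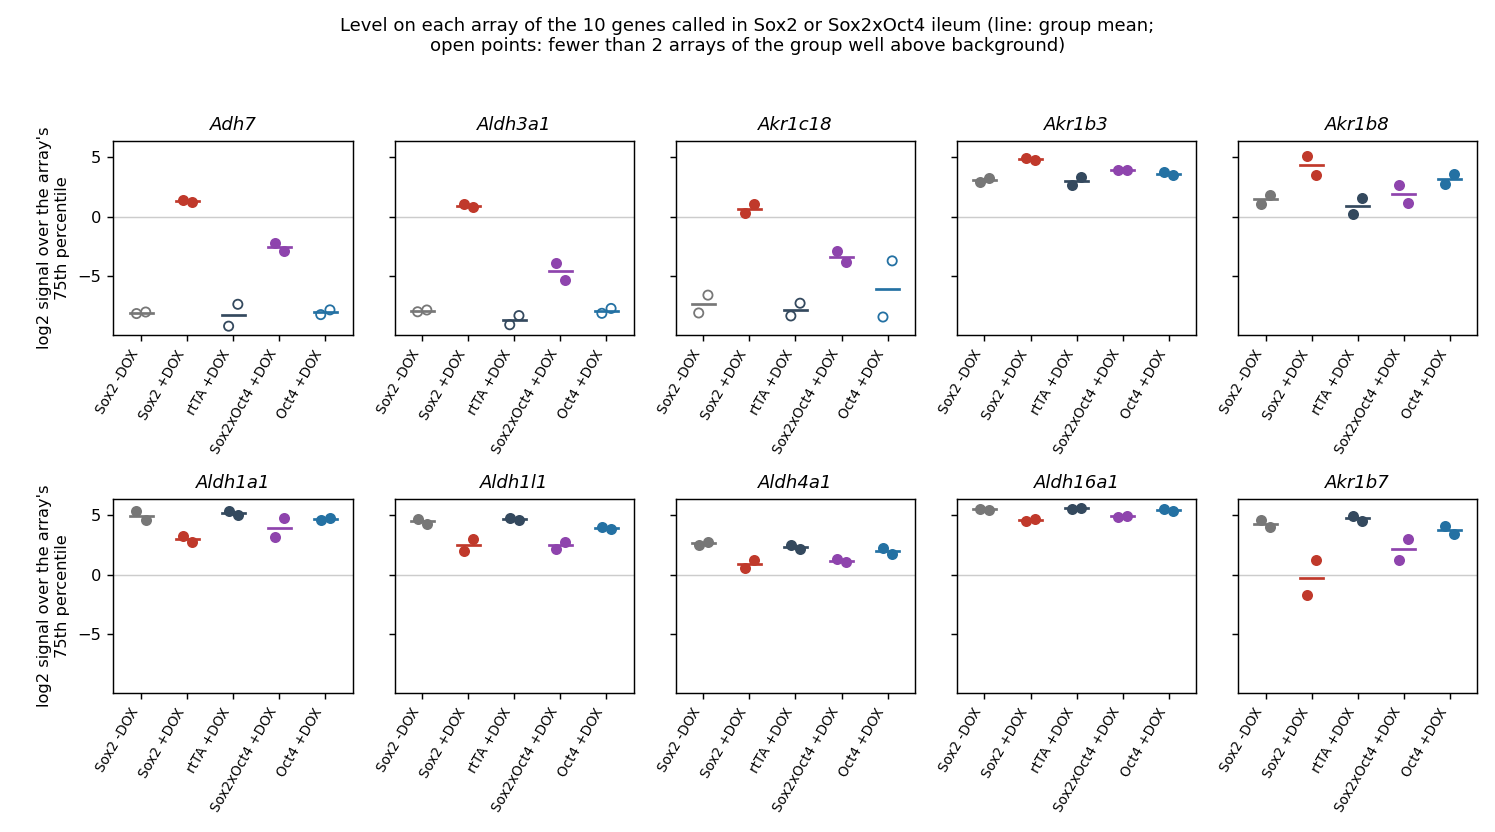
Level on each of the 10 arrays for the 10 genes called in Sox2 +DOX or Sox2xOct4 +DOX ileum, as log2 of the signal relative to the 75th percentile (y axis), by group (x axis). Points are arrays and lines group means of 2, and open points mark groups with fewer than 2 arrays well above background. Adh7, Aldh3a1 and Akr1c18 read -9.22 to -6.61 in untreated and rtTA ileum, 0.30 to 1.41 with Sox2 and -5.30 to -2.23 with both factors.

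Among the alcohol dehydrogenases, Adh7 alone was called. Adh7 encodes the class IV enzyme, which is efficient with retinol. Its level was -8.16 and -8.03 in Sox2 -DOX and -9.22 and -7.38 in rtTA +DOX, none of them well above background. It was 1.41 and 1.26 in Sox2 +DOX. The array therefore gives only a bound in the untreated ileum, and Adh7 was at least 156-fold higher with Sox2 on (log2 difference 9.42 ± 0.55 (SE, n = 2 and 2), limma adjusted p = 3.8e-04). The call held with each of the 4 arrays left out in turn. With another background correction (normexp with an offset of 50, then quantile normalization), which compresses dim signals, the log2 difference was 4.42 and still called. With both factors Adh7 was at -2.23 and -2.87, at least 18.2-fold above rtTA +DOX (log2 difference 5.75 ± 0.55, adjusted p = 0.0021). Normexp gave 1.31 for that difference, also called. In Oct4 +DOX the 2 arrays read -8.25 and -7.85 and were not well above background, as in the controls. Thus Adh7 was measurable on all 4 arrays with Sox2 on and on none of the other 6.

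The rest of the Adh family gave no call in any comparison. Adh1 encodes the class I enzyme that clears ethanol in liver and gut. Its levels were 2.21 and 1.91 in Sox2 -DOX, 2.06 and 3.56 in Sox2 +DOX, 2.73 and 2.94 in rtTA +DOX, 1.34 and 2.32 in Oct4 +DOX and 2.14 and 3.56 in Sox2xOct4 +DOX. The untreated and Sox2 arrays overlap, and the difference was 0.75 ± 0.62 (adjusted p = 0.46). Adh5, the class III enzyme that disposes of formaldehyde, read 3.69 and 3.48 untreated and 4.51 and 4.19 with Sox2. These arrays do not overlap, but the difference of 0.77 ± 0.31 missed the threshold (adjusted p = 0.16). Adh4, the class II enzyme, read -3.69 and -4.20 untreated and -3.17 and -0.94 with Sox2, a difference of 1.89 ± 0.91 (adjusted p = 0.22). Against rtTA +DOX (-1.80 and -1.20), Sox2xOct4 +DOX (-2.01 and -4.27) stood at -1.64 ± 0.91 (adjusted p = 0.32), so the 2 comparisons differ in sign. Adh6a varied most within groups, reading -2.31 and 3.44 on the 2 rtTA +DOX arrays and -3.40 and 2.24 on the 2 Oct4 +DOX arrays. Its SE of 2.02 allows differences of either sign.

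The Aldh1a group includes enzymes that make retinoic acid from retinal, and none of its genes passed the test against untreated ileum. Aldh1a1 is the main one of the gut epithelium. It read 5.32 and 4.58 in Sox2 -DOX, 3.23 and 2.76 in Sox2 +DOX, 5.37 and 4.97 in rtTA +DOX, 4.59 and 4.73 in Oct4 +DOX and 3.14 and 4.72 in Sox2xOct4 +DOX. Both Sox2 arrays lie below all 6 arrays without Sox2, and 1 of the Sox2xOct4 arrays does too. The difference was -1.95 ± 0.51 against untreated ileum (adjusted p = 0.056) and -2.17 ± 0.51 against rtTA +DOX (adjusted p = 0.04). The second was lost without any 1 of its 4 arrays (adjusted p = 0.11 to 0.22). Aldh1a7, which lies 49.8 kb from Aldh1a1 and arose from the same gene, read 2.78 and 1.90 untreated and 2.85 and 2.59 with Sox2, so the groups overlap. Its difference was 0.38 ± 0.40 (adjusted p = 0.57). In Oct4 +DOX (1.37 and 1.53) it stood at -1.36 ± 0.40 against rtTA +DOX (2.96 and 2.66), with no overlap and an adjusted p of 0.18.

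Aldh1a2, the enzyme of the stroma and embryo, read -2.33 and -1.42 untreated and -1.69 and -1.53 with Sox2, so the groups overlap. Its difference of 0.27 ± 0.55 has a 95% interval of -0.98 to 1.52. Aldh1a3 was higher in ileum with both factors, at 3.42 and 2.28, than in rtTA +DOX, at 0.84 and 0.72, but the difference of 2.07 ± 0.68 missed the threshold (adjusted p = 0.11). In Sox2 +DOX (0.41 and 0.90) it overlapped untreated ileum (-0.38 and 0.88), with a difference of 0.41 ± 0.68 (adjusted p = 0.73). A second Aldh1a3 probe differed from this one. It read -5.96 and -4.38 untreated and -2.71 and -3.63 with Sox2, a difference of 2.00 ± 0.55 (adjusted p = 0.066 with all probes tested).

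Aldh3a1 was the aldehyde dehydrogenase that rose. It encodes the enzyme that clears aromatic and lipid-derived aldehydes and that makes up much of the soluble protein of the cornea. It read -8.01 and -7.86 in Sox2 -DOX, -9.10 and -8.33 in rtTA +DOX and -8.14 and -7.73 in Oct4 +DOX, none well above background. With Sox2 it read 1.05 and 0.78, at least 117-fold above untreated ileum (8.85 ± 0.48, adjusted p = 3.0e-04). That call held without each array in turn, and normexp gave 4.0, also called. With both factors it read -3.91 and -5.30, at least 4.38-fold above rtTA +DOX (4.11 ± 0.48, adjusted p = 0.0045). This second call was lost under normexp, where the difference was 0.40 (adjusted p = 0.19), and without rtTA +DOX replicate 1, where it was 3.72 (adjusted p = 0.05 after rounding, just above the threshold). Aldh3a2, the fatty aldehyde dehydrogenase whose probe lies 29.2 kb away, read 2.76 and 2.51 untreated and 2.19 and 2.80 with Sox2. These arrays overlap, unlike those of its neighbour.

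Aldh1l1 and Aldh4a1 fell. Aldh1l1 encodes the cytosolic 10-formyltetrahydrofolate dehydrogenase of the folate cycle. It read 4.68 and 4.24 in Sox2 -DOX, 4.76 and 4.57 in rtTA +DOX and 4.03 and 3.83 in Oct4 +DOX, against 1.94 and 3.0 in Sox2 +DOX and 2.17 and 2.74 in Sox2xOct4 +DOX. All 4 arrays with Sox2 on lie below the 6 others. Aldh1l1 was 3.97-fold lower with Sox2 (-1.99 ± 0.40, adjusted p = 0.026) and 4.62-fold lower with both factors (-2.21 ± 0.40, adjusted p = 0.021). The first call was lost without Sox2 -DOX replicate 1, Sox2 -DOX replicate 2 or Sox2 +DOX replicate 1 (adjusted p = 0.089 to 0.16), with only the 2 groups compared in the fit (0.082) and in the authors' normalized table (0.08). The second was lost without either rtTA +DOX array or Sox2xOct4 +DOX replicate 1 (0.091 to 0.15) and with only the 2 groups in the fit (0.051). Its mitochondrial counterpart Aldh1l2 lay near background on most arrays and was not called.

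Aldh4a1 catalyses the second step of proline breakdown. It read 2.46 and 2.77 untreated and 0.54 and 1.26 with Sox2, a 3.28-fold lower level (-1.71 ± 0.34, adjusted p = 0.026). Leaving out Sox2 -DOX replicate 1, Sox2 -DOX replicate 2 or Sox2 +DOX replicate 1 ended the call (adjusted p = 0.11 to 0.17), as did a fit of only the 2 groups (0.072) and the authors' normalized table (0.073). With both factors it read 1.31 and 1.03 against 2.47 and 2.14 in rtTA +DOX, without overlap, at -1.14 ± 0.34 (adjusted p = 0.092). A second probe of Aldh4a1 stood at -2.09 ± 0.88 with Sox2 (adjusted p = 0.17). That probe was well above background on 0 Sox2 +DOX arrays and 1 Sox2 -DOX array, so signals near background set this value. Aldh18a1, which acts in proline synthesis, read 0.16 and 0.28 untreated and 1.32 and 1.31 with Sox2, and its difference of 1.1 ± 0.32 missed the threshold (adjusted p = 0.073).

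Several other Aldh genes had values below 0 in Sox2 ileum through their tested probe without passing the test. Aldh1b1, a mitochondrial enzyme of the crypts, read 6.29 and 6.08 untreated and 4.12 and 5.48 with Sox2 (-1.38 ± 0.43, adjusted p = 0.091). Aldh16a1 read 5.53 and 5.45 untreated and 4.54 and 4.68 with Sox2 (-0.88 ± 0.24, adjusted p = 0.065). The Aldh16a1 gap exceeds the spread within each of its pairs. For Aldh1b1 the untreated pair is close (SD 0.15), but the Sox2 +DOX pair is wide (SD 0.96). Aldh2, which clears acetaldehyde, read 3.45 and 2.80 untreated and 1.67 and 2.44 with Sox2 (-1.07 ± 0.51, adjusted p = 0.21). Aldh3b1 stood at -1.14 ± 0.41 (adjusted p = 0.12), Aldh9a1 at -1.01 ± 0.36 (adjusted p = 0.12) and Aldh3b2 at -1.11 ± 0.39 (adjusted p = 0.11). Another 4 were not called in this comparison either. Aldh5a1, of the GABA shunt, read 2.93 and 2.75 untreated and 3.01 and 3.32 with Sox2, and Aldh6a1, of valine breakdown, 1.06 and 0.64 against 0.44 and 1.44. Aldh7a1 read -4.37 and -4.93 against -3.85 and -4.28, and Aldh8a1 -4.70 and -4.94 against -5.55 and -4.68. Of the 20 Aldh genes, 11 had values below 0 (55.0%, beside 54.9% of all genes), and 8 of them reached an unadjusted p under 0.05 (40%, beside 15.6% of all genes). In the comparison of Sox2xOct4 +DOX with rtTA +DOX, Aldh9a1 stood at -1.46 ± 0.36 (adjusted p = 0.053) and Aldh1b1 at -1.0 ± 0.43 (adjusted p = 0.21).

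Of the 11 aldo-keto reductases tested, 2 rose and 1 fell with Sox2. Akr1c18 encodes 20-alpha-hydroxysteroid dehydrogenase, which inactivates progesterone. It read -8.11 and -6.61 in Sox2 -DOX and -8.36 and -7.29 in rtTA +DOX, not well above background, and 0.30 and 1.02 in Sox2 +DOX. That is at least 97.9-fold higher (8.02 ± 1.30, adjusted p = 0.012). The call was lost without Sox2 -DOX replicate 1, Sox2 -DOX replicate 2 or Sox2 +DOX replicate 1 (adjusted p = 0.052 to 0.097), and normexp gave 3.95, still called. With both factors Akr1c18 read -2.93 and -3.86, at least 10.1-fold above rtTA +DOX, but this difference of 4.43 ± 1.30 missed the threshold (adjusted p = 0.084). One Oct4 +DOX array read -3.73 and was well above background, while the other read -8.45.

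Akr1b3, Akr1b8 and Akr1b7 lie next to each other and did not move as a block. Akr1b3 encodes aldose reductase, which turns glucose into sorbitol. It read 2.94 and 3.21 untreated, 2.68 and 3.28 in rtTA +DOX and 4.91 and 4.71 with Sox2, a 3.33-fold rise (1.73 ± 0.30, adjusted p = 0.015). A second Akr1b3 probe gave 2.10 ± 0.30 (adjusted p = 0.0083 with all probes tested). The call through the first probe was lost without Sox2 -DOX replicate 1, Sox2 -DOX replicate 2 or Sox2 +DOX replicate 1 (adjusted p = 0.071 to 0.12). With both factors Akr1b3 read 3.93 and 3.93 (0.95 ± 0.30, adjusted p = 0.10), and with Oct4 3.72 and 3.48. All 6 arrays with a factor on therefore lie above the 4 control arrays, but only the Sox2 comparisons passed the test.

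Akr1b8, a reductase of medium-chain aldehydes and retinal, read 1.09 and 1.80 untreated, 0.19 and 1.53 in rtTA +DOX and 5.12 and 3.50 with Sox2. The difference was 2.87 ± 0.74 against untreated ileum (adjusted p = 0.053) and 3.45 ± 0.74 against rtTA +DOX (adjusted p = 0.029). The second was lost without either rtTA +DOX array or Sox2 +DOX replicate 1 (adjusted p = 0.062 to 0.19). In Oct4 +DOX it read 2.75 and 3.60, above both control groups (2.31 ± 0.74 against rtTA +DOX, adjusted p = 0.22). Akr1b7, first described in the vas deferens and also made in the intestine, moved the other way. It read 4.58 and 3.98 untreated, 4.90 and 4.54 in rtTA +DOX, 4.04 and 3.39 in Oct4 +DOX, 1.25 and 2.98 in Sox2xOct4 +DOX and -1.73 and 1.22 in Sox2 +DOX. The 4 arrays with Sox2 on are the lowest. It was 23.2-fold lower with Sox2 than untreated (-4.54 ± 0.90, adjusted p = 0.025). Without Sox2 +DOX replicate 1 the difference was -3.06 (adjusted p = 0.10), and without Sox2 -DOX replicate 1 or 2 the adjusted p was 0.15 and 0.095. A fit of only the 2 groups (0.082) and the authors' normalized table (0.08) also ended the call. With both factors it stood at -2.60 ± 0.90 (adjusted p = 0.13).

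The remaining aldo-keto reductases were not called in any comparison. Akr1c14, a 3-alpha-hydroxysteroid dehydrogenase, read 2.75 and 2.76 untreated and 3.97 and 4.07 with Sox2 (1.26 ± 0.53, adjusted p = 0.17). Its Sox2 arrays lie above the untreated ones, but the Oct4 +DOX arrays read 3.06 and 1.25, a spread wider than this difference. Akr1c19 read 4.0 and 3.76 untreated and 4.64 and 4.75 with Sox2 (0.81 ± 0.27, adjusted p = 0.11). Akr1c12 stood at 0.39 ± 0.31 (adjusted p = 0.45). Akr1a1, the general aldehyde reductase that the array still names Akr1a4, read 5.87 and 5.63 untreated and 5.49 and 5.61 with Sox2 (-0.20 ± 0.26, adjusted p = 0.65, 95% interval -0.80 to 0.40). Akr1c21, a hydroxysteroid dehydrogenase, was well above background on both arrays of Sox2xOct4 +DOX (-6.12 and -3.41) and on 1 other array. Akr1e1 read -0.17 and -0.08 untreated and -0.87 and -0.29 with Sox2, and Akr7a5, which reduces succinic semialdehyde, 2.02 and 1.79 untreated and 2.0 and 2.63 with Sox2. No probe was named Akr1c13.

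**Figure D2:**
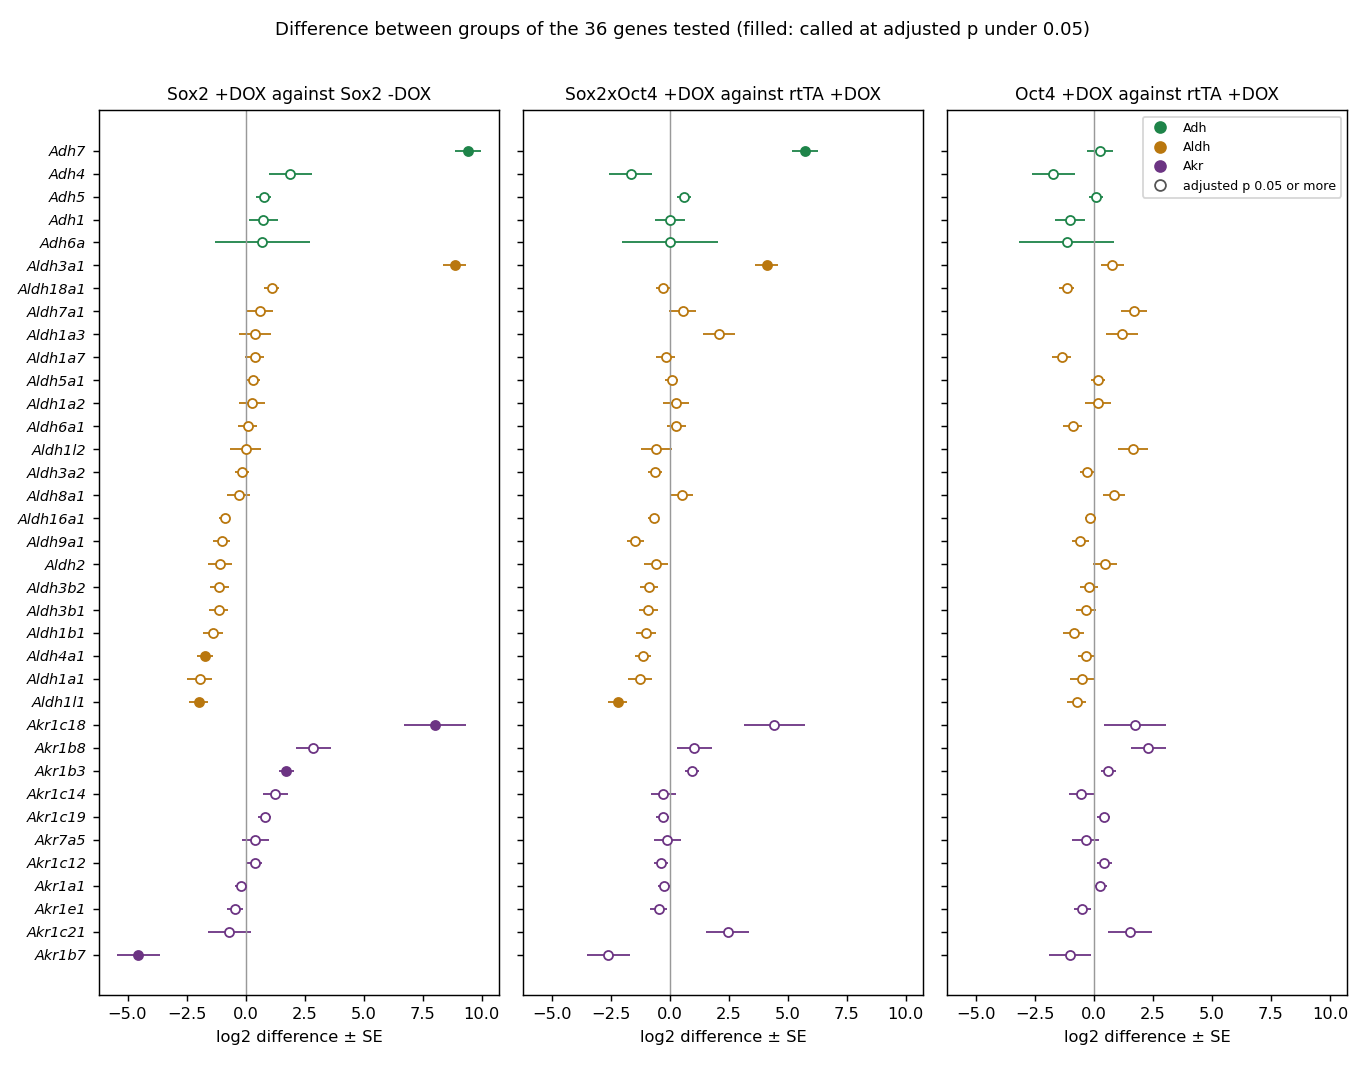
Log2 difference between group means with its SE (x axis) for each of the 36 genes tested (y axis), ordered by family and by the Sox2 response, in 3 comparisons of 2 arrays with 2. Filled points passed an adjusted p under 0.05. Adh7 and Aldh3a1 stand far to the right in both comparisons with Sox2 and at 0.25 and 0.78 in Oct4 +DOX, where no gene is filled.

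With both factors on, 2 of the 36 genes rose against rtTA +DOX and 1 fell. Of all genes 6.35% were called, 3.19% higher and 3.16% lower. They were Adh7, Aldh3a1 and Aldh1l1. Of these, Adh7 and Aldh3a1 passed the filter only through the groups with Sox2 on. The groups did not overlap for 21 of the 36 (58.3%, beside 52.7% of all genes), and the median difference was -0.25, beside 0.07. This comparison and that of Sox2 +DOX with Sox2 -DOX share no arrays and lie on different slides. Adh7, Aldh3a1 and Aldh1l1 were called in both with the same sign. These are all 3 called with both factors and 3 of the 7 called with Sox2. The share of all genes called in both was not counted, so this overlap is a description. Over the 36, 26 had the same sign in both (72.2%), beside 69.6% of all genes.

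The difference between these 2 responses was tested as such. For none of the 36 did limma call it, and 0.168% of all genes were called. At an unadjusted p under 0.05, the signed response with both factors lay above that with Sox2 for 1 of the 36 (2.78%, beside 6.99% of all genes). It lay below for 5 (13.9%, beside 2.63%). Among these 5, Adh4 (1.89 with Sox2, -1.64 with both), Akr1c19 (0.81, -0.29) and Aldh18a1 (1.1, -0.27) had opposite signs in the 2 comparisons. The 1 above was Akr1c21 (3.14 ± 1.30, adjusted p = 0.49), which passed the filter only through Sox2xOct4 +DOX, where it is highest. Aldh3a1 came closest, with a response smaller by 4.74 ± 0.67 on the log2 scale (adjusted p = 0.052), followed by Adh7 with -3.67 ± 0.77 (adjusted p = 0.16). Both were called under normexp (-3.60 and -3.11), quantile normalization (-5.59 and -4.38) and a floor set to each array's lowest clear signal (-4.74 and -3.10). Aldh3a1 was also called without Sox2xOct4 +DOX replicate 1 (-5.44, adjusted p = 0.025). For Akr1c18 the value was -3.59 ± 1.84 (adjusted p = 0.61) and for Akr1b3 -0.79 ± 0.42 (adjusted p = 0.62). Since the 2 responses were measured on different slides, against different controls and in arrays that differ in sex-linked genes, these cannot be told apart from the added Oct4.

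Oct4 without Sox2 gave no call among the 36 in limma, beside 1.01% of all genes. At an unadjusted p under 0.05, 3 were higher (8.33%, beside 6.45% of all genes) and 2 lower (5.56%, beside 6.86%) than in rtTA +DOX, which is near the shares of all genes. The 2 lower were Aldh1a7 (-1.36 ± 0.40) and Aldh18a1 (-1.14 ± 0.32, adjusted p = 0.16), the latter at -0.44 and -0.20 against 0.67 and 0.97. Among the higher was Aldh7a1, which acts in lysine breakdown, at -3.79 and -1.94 against -4.58 and -4.55 (1.70 ± 0.57, adjusted p = 0.24). It was called without Oct4 +DOX replicate 1 alone (2.63, adjusted p = 0.049). The groups did not overlap for 25 of the 36 (69.4%, beside 46.3% of all genes). Among the 25 were Aldh3a1 and Akr1c21, neither of them well above background on an Oct4 +DOX array. Oct4 +DOX lies on a slide of its own, and slide and group cannot be told apart here. The values of Aldh1l1 (-0.73 ± 0.40), Aldh1a1 (-0.50 ± 0.51), Akr1b3 (0.62 ± 0.30) and Akr1b7 (-1.01 ± 0.90) missed the threshold, and whether they differ from the Sox2 values was not tested.

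Set against rtTA +DOX, which received the same water, Sox2 +DOX had 5 of the 36 genes higher and 5 lower. Of all genes 8.38% were called, 3.23% higher and 5.15% lower, and the groups did not overlap for 23 of the 36 (63.9%) and 63.0% of all genes. The Sox2 +DOX arrays are those of the first comparison, so this one is no independent support. It also crosses slides, between arrays that differ in sex-linked genes. Adh7 stood at 9.63 ± 0.55 (adjusted p = 2.3e-04), Aldh3a1 at 9.62 ± 0.48 (2.1e-04), Akr1c18 at 8.48 ± 1.30 (0.0096) and Akr1b3 at 1.83 ± 0.30 (0.012), with Akr1b8 as above. Akr1b7 stood at -4.98 ± 0.90 (0.017), Aldh1l1 at -2.19 ± 0.40 (0.017), Aldh4a1 at -1.41 ± 0.34 (0.044) and Aldh16a1 at -0.96 ± 0.24 (0.049), with Aldh1a1 as above. Only Adh7 and Aldh3a1 remained called with any 1 of the 4 arrays left out. Aldh16a1 was lost without any of them (adjusted p = 0.086 to 0.23), and Aldh4a1, Akr1b7 and Aldh1l1 without Sox2 +DOX replicate 1 or either rtTA +DOX array (up to 0.25, 0.12 and 0.13). Akr1c18 and Akr1b3 were lost without Sox2 +DOX replicate 1 or rtTA +DOX replicate 1 (up to 0.087 and 0.10). With only the 2 groups in the fit, Akr1b7 (0.054), Akr1b8 (0.06), Aldh1l1 (0.055), Aldh4a1 (0.085) and Aldh16a1 (0.10) were lost too. Aldh4a1 and Aldh16a1 were also lost with quantile normalization (0.057 and 0.083), without the filter on dim probes (0.076 and 0.10) and with a replicate block (0.054 and 0.058), Aldh16a1 with all probes (0.055) and Aldh1a1 without the filter (0.059).

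Many of these genes stand in clusters of tandem copies, and the genes of a cluster were not all called together. The 6 Adh genes lie within 223.7 kb on chromosome 3 by the array's coordinates (build mm8), in the order Adh7, Adh1, Adh6a, Adh6-ps1, Adh4 and Adh5. Adh7 rose at 1 end, and Adh1, whose probe is 58.3 kb away, was at 0.75. On chromosome 6, Akr1b3, Akr1b8 and Akr1b7 lie within 118.9 kb, with Akr1b3 up and Akr1b7 down. On chromosome 13, the probes of Akr1c18 and Akr1c19 lie 45.3 kb and 149.0 kb from that of Akr1c14, and of these 3 genes Akr1c18 was called. Tandem copies can be alike in sequence, so the probes were compared. Of 1633 pairs of probes for different genes, the most alike (Akr1c18 and Akr1b3) shared 32 of 60 bases and 0 pairs shared 45 or more. The probes were compared with each other and not with the RNA of the other genes, so few shared bases do not settle cross-binding. Whether a probe binds the RNA of another gene of its family was not tested.

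**Figure D3:**
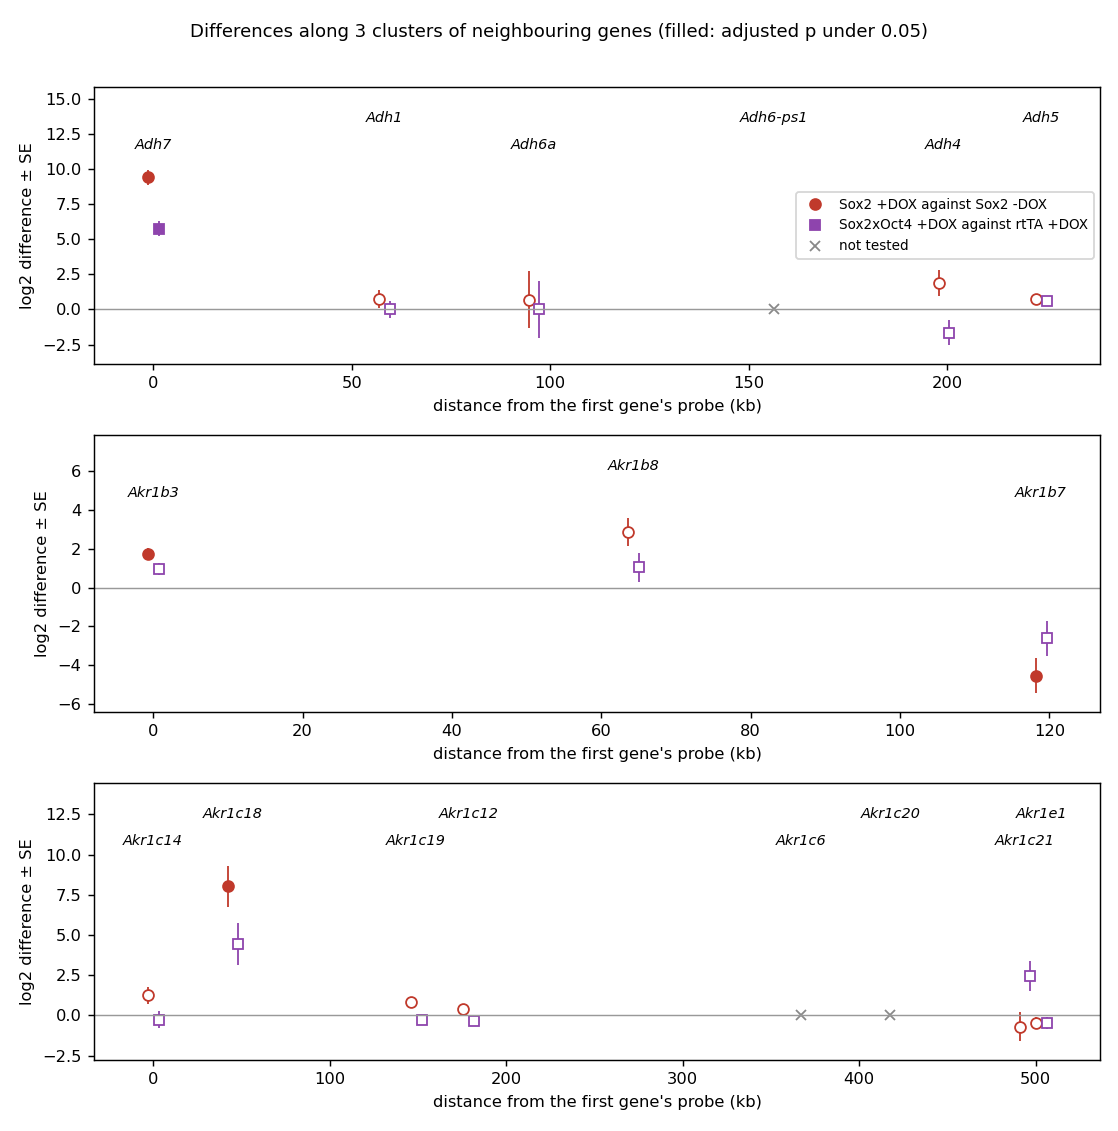
Log2 difference with its SE (y axis) against the distance in kb of each gene's probe from the first probe of its cluster (x axis), for the Adh cluster on chromosome 3, the Akr1b cluster on chromosome 6 and the Akr1c cluster on chromosome 13. Circles are Sox2 +DOX against Sox2 -DOX, squares Sox2xOct4 +DOX against rtTA +DOX, filled symbols passed an adjusted p under 0.05, and crosses mark genes not tested. Adh7 (9.42) and Akr1c18 (8.02) stand apart from their neighbours, and Akr1b7 (-4.54) lies opposite to Akr1b3 (1.73).

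Of the 16 genes with more than 1 probe, 11 had 2 or more probes that passed the filter, and for 8 of these all probes had 1 sign with Sox2. Aldh3b2 was an exception. Its tested probe read 0.93 and 0.55 untreated and -0.81 and 0.08 with Sox2, while the other read -3.16 and -2.99 untreated and -1.92 and -1.29 with Sox2. The first stood at -1.11 ± 0.39 and the second at 1.46 ± 0.38 (adjusted p = 0.055 with all probes tested), so the array gives no single direction for Aldh3b2. Aldh2 was another, with its second probe at 0.45 ± 0.94. Adh1 was the third, with 1 of its other 2 probes at -0.35 ± 1.18. That probe was well above background on 3 arrays, both of Sox2xOct4 +DOX (-5.33 and -1.58) among them, and stood at 3.95 ± 1.18 against rtTA +DOX (adjusted p = 0.089 with all probes tested), where the tested Adh1 probe gave 0.01. Adh7, Aldh3a1, Akr1c18, Akr1b7 and Aldh1l1 have 1 probe each, so no second probe bears on them.

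Retinol metabolism needs more than the dehydrogenases of these families, and 33 other genes of the pathway were tested. With Sox2, 3 rose (Dhrs9, Cyp26b1 and Ttr) and 5 fell (Rdh16, Rbp7, Rxra, Lrat and Isx), with a median of -0.49 beside -0.10 for all genes. Cyp26b1, which breaks down retinoic acid, read -3.41 and -2.35 untreated and 2.79 and 2.35 with Sox2 (5.45 ± 0.45, adjusted p = 9.4e-04). Dhrs9, a retinol dehydrogenase of the short-chain family, rose by 4.44 ± 0.34 (7.6e-04). The calls of Cyp26b1 and Dhrs9 held with each array left out. Rdh16, another retinol dehydrogenase of that family, read -0.33 and -0.59 untreated and -4.78 and -5.33 with Sox2 (-4.60 ± 0.63, adjusted p = 0.0071), and was lost without Sox2 -DOX replicate 1 (0.066). The list was drawn up with earlier results of these data known, so its counts are a description.

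With both factors, Cyp26b1 was the 1 gene of the 33 that rose, at 1.33 and 1.00 against -2.54 and -3.18 in rtTA +DOX. Its difference was 4.03 ± 0.45 (adjusted p = 0.0041), a call that held with each array left out. Rbp7 (-1.99 ± 0.35, adjusted p = 0.019), Rdh9 (-2.08 ± 0.40, adjusted p = 0.025) and Dgat1 fell. Rbp7 and Rdh9 were lost without any 1 of the 4 arrays (0.052 to 0.18) and with only the 2 groups in the fit (0.073 and 0.051). The median of the 33 was -0.17, beside 0.07. Oct4 +DOX had 0 of the 33 called.

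Genes that reduce carbonyls, conjugate them to glutathione or supply NADPH were the other list, with 32 tested. With Sox2, 5 rose (Gsta4, Gsta3, Ephx1, Gstm1 and Gsta2) and 1 fell (Srxn1), with a median of 0.51 beside -0.10. Gsta4, the glutathione transferase for 4-hydroxynonenal, a lipid aldehyde, read -1.29 and -1.42 untreated and 3.72 and 4.10 with Sox2 (5.27 ± 0.54, adjusted p = 0.0022), and held with each array left out. Gsta3 was at 2.18 ± 0.38 (adjusted p = 0.016) and Ephx1, the microsomal epoxide hydrolase, at 2.26 ± 0.45 (0.025). Both were lost without Sox2 -DOX replicate 1, Sox2 -DOX replicate 2 or Sox2 +DOX replicate 1 (0.071 to 0.16). Srxn1, a sulfiredoxin, was at -1.71 ± 0.29 (adjusted p = 0.013) and was lost without the same arrays (0.062 to 0.12), with only the 2 groups in the fit (0.057) and in the authors' table (0.056). Glutathione transferases of 1 class are alike in sequence, and how far their probes tell them apart was not tested.

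With both factors, Gsta3 rose by 4.27 ± 0.38 (adjusted p = 0.0017), read at 3.84 and 4.26 against -0.54 and 0.09, and held with each array left out. Slc7a11, the cystine importer, was at 4.42 ± 0.84 (adjusted p = 0.023) and was lost without any 1 of the 4 arrays (0.064 to 0.13). Srxn1 fell again (-2.18 ± 0.29, adjusted p = 0.0073) and was lost without either rtTA +DOX array (0.068 and 0.054). The median of the 32 was -0.16, beside 0.07, and Oct4 +DOX had 0 called. The median thus stood above that of all genes with Sox2 and below it with both factors. Whether the 2 medians differ was not tested.

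**Figure D4:**
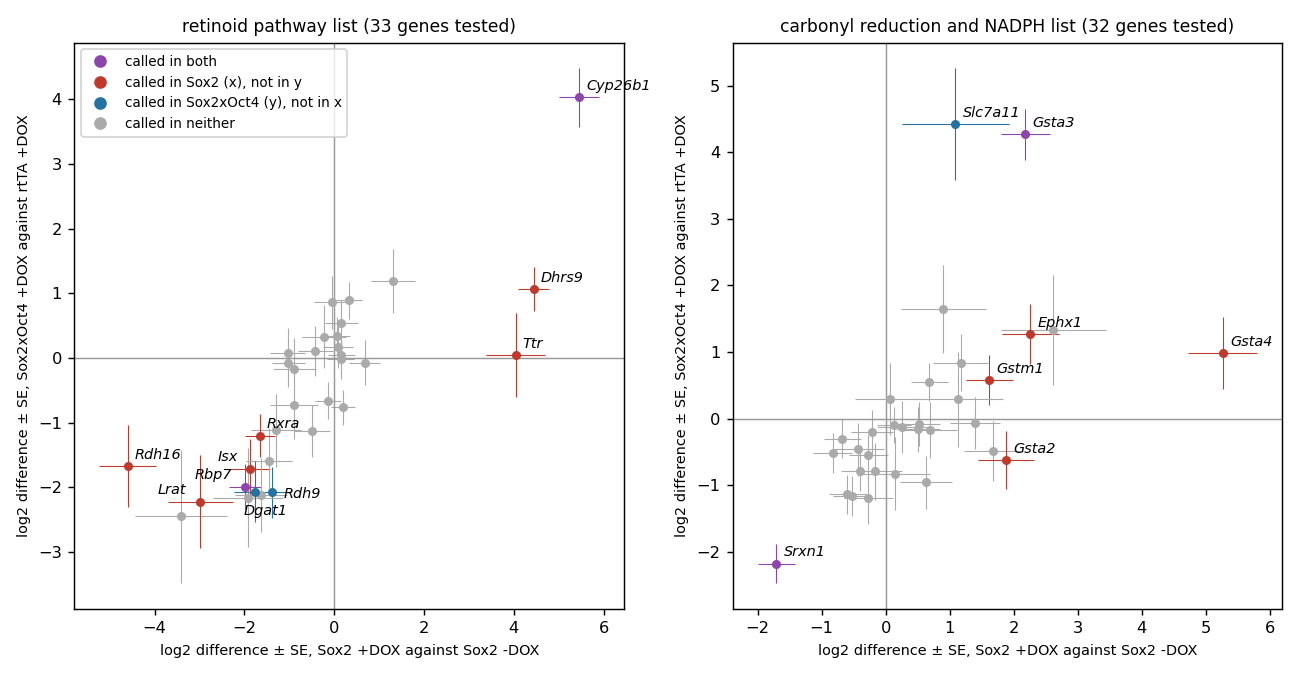
Log2 difference with its SE in Sox2 +DOX against Sox2 -DOX (x axis) and in Sox2xOct4 +DOX against rtTA +DOX (y axis), for 33 genes of the retinoid pathway (left) and 32 of carbonyl reduction and NADPH supply (right). Points are genes, coloured by the comparison in which they passed an adjusted p under 0.05. Cyp26b1 and Gsta3 lie high on both axes and Srxn1 low on both, while Gsta4 and Dhrs9 lie high on the x axis.

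Markers of several cell types also differed between the groups. The summed signal of 10 ileal enterocyte markers, relative to the 75th percentile, was 840 to 941 in Sox2 -DOX and 225 to 450 in Sox2 +DOX, 575 to 900 in rtTA +DOX and 351 to 757 in Sox2xOct4 +DOX. It was 700 to 915 in Oct4 +DOX. Cubn and Alpi were the 2 of 10 called lower with Sox2, and 0 of 10 were called with both factors. In whole tissue, fewer cells of a type and less RNA per cell cannot be told apart. The summed signal of 10 squamous epithelium markers was 2.21 to 2.31 in Sox2 -DOX and 10.1 to 11.9 in Sox2 +DOX, with Krt4, Ivl and Krt6a called higher. It was 2.43 to 4.77 in rtTA +DOX and 2.54 to 3.38 in Sox2xOct4 +DOX, where Trp63 and Krt6a were called higher. In Oct4 +DOX, without Sox2, the squamous sum was 2.4 to 3.85, and Trp63 and Krt6a were also called higher than in rtTA +DOX. The median log2 difference of the 10 was 0.83 with Sox2, 1.32 with both factors and 0.37 with Oct4. For 10 gastric markers the sums were 0.317 to 0.364 in Sox2 -DOX, 1.99 to 8.89 in Sox2 +DOX, 0.207 to 0.296 in rtTA +DOX and 12.0 to 26 in Sox2xOct4 +DOX. Of these 10, 6 were tested, with a median of -0.02 with Sox2 and 0.08 with both factors. Lipf was the 1 called higher in both comparisons, while Gkn1, Pgc and Cblif, which define gastric pit and gland cells, had no array well above background. In Oct4 +DOX the gastric sum was 0.441 to 0.669, and Tff1 was called higher than in rtTA +DOX. The sums of 7 adipocyte markers (23.3 to 34.0 untreated, 4.73 to 8.10 with Sox2), 6 smooth muscle markers (61.7 to 86.9 and 25.2 to 32.7) and 6 T cell markers (6.39 to 8.32 and 1.42 to 2.35) were lower in Sox2 +DOX too. Of their tested genes, Lipe (adipocyte) and Cd3d (T cell) were called lower. The 2 arrays of Sox2xOct4 +DOX differed widely in adipocyte (5.52 and 52.7) and smooth muscle sums (25.6 and 196). In rtTA +DOX these sums were 9.75 to 22.5 and 79.3 to 156. T cell sums were 1.84 to 2.88 in Sox2xOct4 +DOX and 3.08 to 6.16 in rtTA +DOX. Fibroblast sums overlapped (15.6 to 27.5 untreated, 14.7 to 17.3 with Sox2), as did B and plasma cell sums (48.1 to 108, 23.9 to 53.4). Macrophage and dendritic cell sums were 85.4 to 94.7 untreated and 71.2 to 78.0 with Sox2, yet Cd68 was called higher. Hepatocyte sums were 17.9 to 33.0 and 33.6 to 39.2, with Ttr called higher and Tat lower. Pancreatic acinar sums were 0.318 to 0.335 and 0.393 to 0.473. The part of these cell types in the changes of the dehydrogenases and reductases was not tested.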

How the data were processed

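RNA of 10 ileum samples, 5 groups of 2, was labelled with Cy3 and hybridised to Agilent whole-genome arrays with 1 sample per array. The deposited scanner files give, per the file headers, the processed signal intensity of 45018 spots, background-subtracted by Agilent Feature Extraction 9.5.3.1 (TetON-Sox2), 10.7.1.1 (rtTA and both factors) or 10.7.3.1 (Oct4); the submitters' processing notes name version 9.1. The authors also deposited a normalized signal table, of which the 4 TetON-Sox2 columns were used as an alternative. Its normalization is not stated in the labels.

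From these, log2 of the processed signal minus each array's 75th percentile was fitted with limma 3.58.1 in R 4.3.3. All 10 arrays entered 1 fit with a mean for each group, leaving 5 residual degrees of freedom. Outlier spots (45 to 65 per array) and control spots were left out, spots of a probe were averaged, and 28752 of 41143 probes passed the filter of standing well above background on both arrays of a group. Each gene was tested through its probe of highest mean, 19045 genes in all, with names from RefSeq for 80.3% of probes and from the files otherwise. Where both arrays of a group were not well above background, a fold is given as at least the bright group's mean over the lowest signal well above background on the dim arrays (or the probe's own, if higher). A second fit used all probes; the other alternatives were normexp (offset 50) with quantile normalization, quantile normalization, no filter, a floor, a variance trend, only the groups compared, slide and replicate blocks, and leaving out each array.

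No probe was saturated, and 2 arrays per group limit the precision. The members, lists and marker genes were chosen with earlier results of these data known. One gene of the retinoid list is not reported here, and the counts leave it out. Named genes were every called member and a set list of members in the first 3 comparisons, and up to 4 called genes of each other list; for many members not called, levels or ranges are given. Upstream sequences are from RefSeq (GRCm38.p6) and were matched by symbol; probe coordinates are from the files (mm8 per the file headers of the rtTA arrays), and the builds were not mixed.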

Additional observations from a re-analysis of the deposited data

Results flagged for a closer look

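For 3 genes a second probe passed the test when all probes were fitted (limma, adjusted over all probes). In these comparisons the probe that represents the gene was not called. Second probes of Akr1b3 and Aldh16a1 also passed, in comparisons where the representing probe was called in the main fit. That of Aldh16a1 stood at -1.33 ± 0.31 in Sox2 +DOX against rtTA +DOX (adjusted p = 0.037). The second Aldh1a3 probe read -3.01 and -3.85 in Sox2xOct4 +DOX against -5.70 and -5.69 in rtTA +DOX, a log2 difference of 2.26 ± 0.55 (adjusted p = 0.05 after rounding). In Sox2 +DOX, at -2.71 and -3.63, it stood at 2.52 ± 0.55 against rtTA +DOX (adjusted p = 0.032), while the tested Aldh1a3 probe gave -0.12 ± 0.67. The second Aldh3b2 probe stood at 1.5 ± 0.38 in Sox2 +DOX against rtTA +DOX (adjusted p = 0.049), opposite in sign to the tested probe (-1.11 ± 0.39, adjusted p = 0.11). The second Aldh9a1 probe read 0.09 and 0.15 in Sox2xOct4 +DOX against 2.40 and 1.93 in rtTA +DOX, a difference of -2.05 ± 0.34 (adjusted p = 0.016). In Sox2 +DOX, at 0.33 and 0.77, it stood at -1.62 ± 0.34 (adjusted p = 0.027), and the tested Aldh9a1 probe gave -1.46 and -1.0 in these 2 comparisons. The comparisons of Sox2 +DOX with rtTA +DOX cross slides, between arrays that differ in sex-linked genes.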

How the results depend on the processing

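Over the settings tried, no value called in the report changed sign. The counts in this section are of members and list genes. Shares of all genes called under the same settings are not given, so the counts do not set these genes apart from others. Recomputed for the called members, 193 values kept the call and 64 lost it. The 193 include those of the slide block, which equals the main fit in this design and could not lose a call. Adh7 kept its call under every setting in all 3 comparisons with Sox2, and Aldh3a1 in both comparisons of Sox2 +DOX. The 7 members called in Sox2 +DOX against Sox2 -DOX became 13 with normexp and quantile normalization, 11 with a variance trend, 4 with only the groups compared, 4 in the authors' normalized table and 2 to 10 with 1 array left out. The 3 called with both factors became 5 with a floor and 1 to 4 with 1 array left out. The 10 called in Sox2 +DOX against rtTA +DOX became 5 with only the groups compared and 2 to 10 with 1 array left out. For Oct4 the count was 0 to 1 with 1 array left out. Of responses that differ, 2 were called with normexp, 2 with quantile normalization and 2 with a floor, and 0 to 1 with 1 array left out. Retinoid genes called with Sox2 numbered 4 with only the groups compared, 4 in the authors' table and 2 to 11 with 1 array left out; with both factors 7 with normexp, 1 with only the groups compared and 1 with any 1 array left out. Carbonyl and NADPH genes numbered 10 with normexp and 1 to 6 with 1 array left out with Sox2, and with both factors 5 with normexp, 5 with a variance trend and 1 to 4 with 1 array left out. Uncalled differences with Sox2 that changed sign with 1 array left out were those of Adh1 (-0.0 to 1.5), Aldh1a2 (-0.18 to 0.72), Aldh1a3 (-0.22 to 1.03) and Aldh1a7 (-0.06 to 0.82). Where leaving out 1 array left a lone sample, it was assumed to vary like the other groups; otherwise the cause of these shifts was not tested.

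The deviations of replicate 1 from the group mean correlated at -0.13 to 0.27 between groups. Whether samples of the same replicate number shared more than that number is not settled by these values. With the number as a replicate block, the counts of called members were 7 in Sox2 +DOX against Sox2 -DOX, 4 with both factors, 0 with Oct4, 8 in Sox2 +DOX against rtTA +DOX, 0 between the controls and 0 for the difference of responses. Normexp with quantile normalization and quantile normalization alone each moved the median of all genes by 0.11 in Sox2 +DOX against Sox2 -DOX. Signals near background set the size of the Adh7, Aldh3a1 and Akr1c18 differences, so their folds are bounds.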
